A study of Mus musculus with 4 samples.

Results

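The kinesin and cytoplasmic dynein motor genes were compared between primary cultures of mouse cerebral cortical neurons and of cortical astrocytes. Members were taken by gene symbol: the kinesins (Kif followed by a number and at most 1 letter), the kinesin light chains (Klc), the heavy, intermediate and light intermediate chains of cytoplasmic dynein (Dync1 and Dync2), the dynactin subunits (Dctn) and the dynein light chains Dynll1 and Dynll2. On the array, 134 of 45037 transcript probe sets carried 1 such symbol, and they named 55 of 18193 genes. Klc2 had no probe set with that symbol alone. Each of 4 cultures, 2 of neurons and 2 of astrocytes, was read on its own array, all from C57BL6 mice and titled as biological replicates. Both were plated in the same medium with glutamine and antibiotics. Neurons were taken at embryonic day 16 and soon after plating moved to 1% fetal calf serum and 19.4 mM of glucose, to which progesterone, putrescine, transferrin, insulin and selenite had been added. Astrocytes were taken from newborn mice and kept with 10% serum and 33 mM of glucose. The series text gives 7 days in culture for neurons and 20 days for astrocytes, whereas the protocol gives 7 to 8 days for all assays. Cell type, donor age, medium and, by the series text, time in culture changed together and cannot be told apart here. The labels do not say whether the 2 cultures of a type came from separate animals, so p-values measure the spread between these cultures.

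Kinesins and cytoplasmic dynein are motors that walk along microtubules by hydrolysing ATP, most kinesins toward the plus end and dynein toward the minus end. In an axon the plus ends point away from the cell body, so kinesins carry synaptic vesicle precursors, mitochondria and other cargo outward, and dynein with its activator dynactin carries endosomes and signals back. A second set of kinesins builds the mitotic spindle, moves chromosomes and completes cytokinesis in dividing cells, and others work in cilia. The members were grouped by these roles: 15 transport kinesins of axons and dendrites, 12 mitotic kinesins, 10 other kinesins, 3 light chains of kinesin, 7 genes of dynein 1 and its light chains, 2 genes of dynein 2, the dynein of cilia, and 6 dynactin subunits.

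The start regions of 5 mitotic kinesins are shown with that of a transport kinesin, Kif5c, for contrast. The windows run 5′ to 3′ on the strand of the gene from 120 bases before to 30 bases after the transcript start, from RefSeq on GRCm38.p6. Capitals mark 2 motifs on either strand: CCAAT, the box read by NF-Y, and TTTGAA, a form of the cell cycle homology region found in genes expressed in G2 and mitosis.
Kif11 (chr19:37376262-37376411, plus strand): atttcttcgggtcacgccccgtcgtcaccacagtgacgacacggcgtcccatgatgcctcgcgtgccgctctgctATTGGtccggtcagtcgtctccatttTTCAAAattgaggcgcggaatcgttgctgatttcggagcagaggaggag
Kif4 (chrX:100625945-100626094, plus strand): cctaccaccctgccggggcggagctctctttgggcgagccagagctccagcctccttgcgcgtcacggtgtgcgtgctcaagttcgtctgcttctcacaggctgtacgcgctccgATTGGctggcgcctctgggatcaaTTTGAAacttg
Kif20b (chr19:34922238-34922387, plus strand): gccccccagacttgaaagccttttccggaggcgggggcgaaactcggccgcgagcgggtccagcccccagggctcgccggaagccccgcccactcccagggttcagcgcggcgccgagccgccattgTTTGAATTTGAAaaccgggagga
Kif22 (chr7:127042391-127042540, minus strand): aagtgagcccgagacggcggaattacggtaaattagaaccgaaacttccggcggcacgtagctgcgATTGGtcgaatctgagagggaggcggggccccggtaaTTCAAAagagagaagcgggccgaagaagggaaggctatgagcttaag
Kif23 (chr9:61946770-61946919, minus strand): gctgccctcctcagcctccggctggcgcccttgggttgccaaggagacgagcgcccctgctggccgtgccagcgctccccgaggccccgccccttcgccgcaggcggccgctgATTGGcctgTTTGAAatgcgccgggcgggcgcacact
Kif5c (chr2:49619166-49619315, plus strand): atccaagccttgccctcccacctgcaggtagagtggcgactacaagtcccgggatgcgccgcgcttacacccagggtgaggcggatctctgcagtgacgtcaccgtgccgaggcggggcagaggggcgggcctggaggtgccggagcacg
The 5 mitotic windows each held TTTGAA close to the start, from 19 bases before it in Kif11 to 19 bases after it in Kif4, and the Kif5c stretch shown held neither motif. Of the 55 members, 44 had a window in the RefSeq table (250 bases before to 50 after the start; a gene with several windows counts once). TTTGAA stood in 9 of 11 mitotic kinesin windows (81.8%) and in 1 of 11 transport kinesin windows (9.09%), against 5466 of 27025 genes with a window (20.2%). CCAAT stood in 7 of 11 mitotic and 3 of 11 transport windows (63.6% and 27.3%), against 41.1% of all genes. CCAAT together with TTTGAA or TTCGAA stood in 6 of the 11 mitotic windows (54.5%) and in 0 of the 11 transport windows, against 9.65% of all genes. TTCGAA is another form of the homology region. It stood in 0 mitotic windows and in 1.80% of all genes, and GGGCGG, the GC box, in 54.5% of mitotic, 81.8% of transport and 38.2% of all windows. Matches of different motifs overlapped in 1 of the 50 windows of members, both strands were searched for each motif, and a match describes only the letters of a window.

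A member was tested where at least 1 of its probe sets lay at or above the array median on 2 or more of the 4 arrays. This held for 102 of 134 probe sets and 49 of 55 genes, and a gene was read by its tested probe set with the highest mean. Signals are linear MAS5 values, fold changes are of log2(signal + 12.5), neurons minus astrocytes, and a gene passed at an adjusted p under 0.05 in limma over all 25019 tested probe sets. The highest signals of the 27 Bacillus subtilis control probe sets, taken as background, were 21 and 23 in neurons and 17 and 15 in astrocytes. The other 6 genes were too dim to be tested: the mitotic kinesins Kif14, Kif15, Kif18a and Kif2b, together with Kif12 and Kif28, had signals from 1 to 61.

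Motor genes differed between the cultures in both directions, more of them toward neurons. Of the 49 tested, 26 were higher in neurons (53.1%, against 31.0% of all 12040 genes tested) and 11 were higher in astrocytes (22.4%, against 31.1%). A further 12 did not pass. A difference of 2-fold or more was seen for 19 members toward neurons and for 6 toward astrocytes, where the shares over all genes were 18.0% and 18.8%. The signals of the groups did not overlap for 40 of the 49 (81.6%, against 81.9% of all genes), so this share was close to the background. The median log2 fold change was 0.63 for the tested members and 0.02 for all genes. Of the 49, 11 passed the filter through the arrays of 1 group alone and so had to differ. Through the neuron arrays these were Dync1i1, Kif26a and 6 mitotic kinesins, and through the astrocyte arrays Klc3, Kif9 and Kif27.

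**Figure D1:**
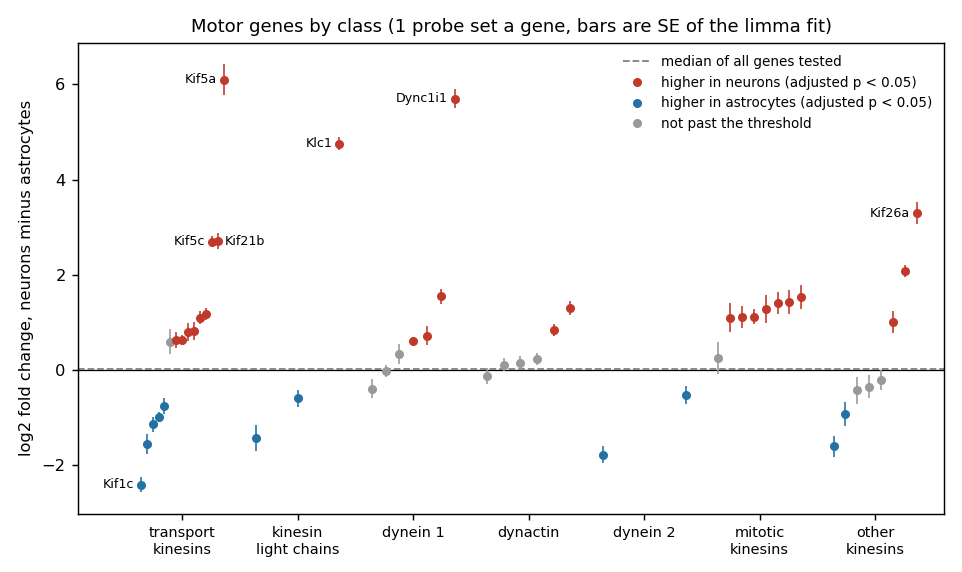
Log2 fold change (neurons minus astrocytes, y axis) of the 49 tested motor genes by class (x axis), 1 point a gene with the SE of the limma fit, red where higher in neurons, blue where higher in astrocytes and grey where not past the threshold. Kif5a (6.10), Dync1i1 (5.70) and Klc1 (4.76) stand far above the rest, transport kinesins lie on both sides of 0, and 7 of 8 mitotic kinesins lie between 1.09 and 1.53.

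The cultures carried the marker genes of their labels, with others beside them. All 10 neuron markers were higher in neurons (100%, against 31.0% of all genes), although several were kept through the neuron arrays alone. Their summed signals were 29527 and 28934 in neurons against 1682 and 1700 in astrocytes, and 3 of the 10 were at background in astrocytes. Of 9 tested astrocyte markers 7 were higher in astrocytes (77.8%, against 31.1%). The summed signals of that list were 6139 and 6593 in neurons and 17796 and 18020 in astrocytes. The glutamate transporter Slc1a2, named after its values were seen, went the other way, at 1832 and 1865 in neurons and 431 and 379 in astrocytes (4.47-fold higher in neurons, adjusted p = 1.84e-06). The astrocyte arrays also had more signal of 8 fibroblast and meningeal markers (541 and 582 in neurons, 4571 and 4707 in astrocytes) and of 8 microglia markers (123 and 161 in neurons, 760 and 766 in astrocytes). The 6 endothelial markers had low signal in both, with sums of 98 and 109 in neurons and 131 and 121 in astrocytes. The 1 tested did not pass. Of the 6, 5 were at background in neurons and 1 in astrocytes, where the background was lower (17 and 15, against 21 and 23 in neurons). In such bulk cultures fewer cells of a type and less RNA per cell cannot be told apart.

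The 3 heavy chains of conventional kinesin, the motor of fast axonal transport, split between the cultures. Kif5a, the neuronal heavy chain, had signals of 2694 and 2592 in neurons against 13 and 46 in astrocytes. The neuron arrays were high and close together, and 1 of the astrocyte arrays lay under its background. Kif5a was 68.7-fold higher in neurons (log2 fold change 6.10 ± 0.32, SE of the fit with 2 arrays a group, adjusted p = 1.36e-06). The log2 fold change was 5.50 without astrocytes replicate 1, 6.70 without astrocytes replicate 2 and 5.11 with an offset 4 times as large. A second tested Kif5a probe set was much dimmer, at 72 and 75 in neurons and 30 and 36 in astrocytes. It gave 1.89-fold in the same direction (adjusted p = 0.00580), and the mean of both gave a log2 fold change of 3.51. Kif5c, the other heavy chain enriched in neurons, had 3891 and 3944 in neurons against 568 and 620 in astrocytes, and was 6.49-fold higher (2.70 ± 0.11, adjusted p = 4.05e-07). Kif5b, the heavy chain found in most cells, went the other way, at 959 and 1029 in neurons against 1981 and 1979 in astrocytes. The replicates of each culture lay close together, and Kif5b was 1.98-fold higher in astrocytes (-0.99 ± 0.11, adjusted p = 8.80e-05). Of its 6 tested probe sets 4 were called higher in astrocytes and 2 did not pass.

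Kinesin light chains tie the heavy chains to cargo, and the 3 measured ones also split. Of these 33.3% were higher in neurons and 66.7% in astrocytes, against 31.0% and 31.1% of all genes. Klc1, a chain enriched in neurons, had 4475 and 4690 in neurons against 176 and 141 in astrocytes. That probe set was 27.0-fold higher in neurons (4.76 ± 0.14, adjusted p = 1.35e-07), the change with the smallest adjusted p among the 49 genes. Klc3, known from the sperm tail, had 17 and 33 in neurons and 80 and 93 in astrocytes, 2.70-fold higher in astrocytes (adjusted p = 0.00175). Klc4 had 80 and 87 in neurons and 127 and 139 in astrocytes, 1.52-fold higher in astrocytes (adjusted p = 0.0188). Both calls were lost in fits with 1 array left out. Klc3 had an adjusted p of 0.0535 without astrocytes replicate 1 and of 0.0699 without astrocytes replicate 2. Klc4 missed the threshold without neurons replicate 1 (0.0781) or 2 (0.0565) and without astrocytes replicate 1 (0.0744) or 2 (0.110), and with its probe sets averaged (0.175).

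**Figure D2:**
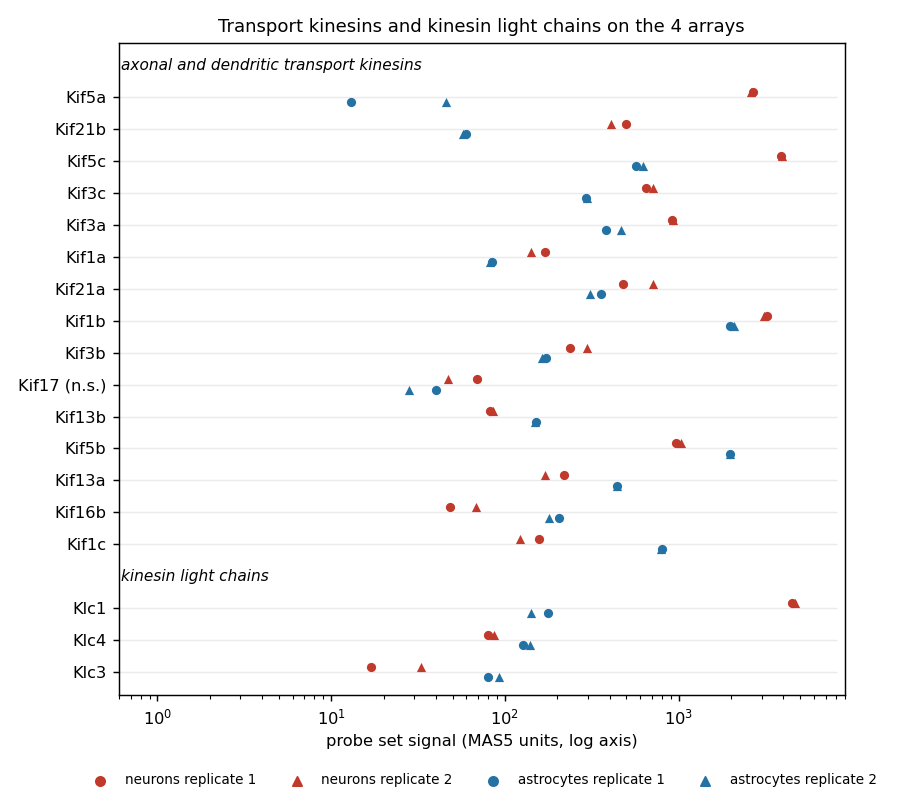
Signal (x axis, MAS5 units, log scale) of the 15 transport kinesins and 3 kinesin light chains (y axis, ordered by fold change) on each array, neurons in red and astrocytes in blue, with n.s. for a gene that did not pass. The red and blue points of Kif5a, Kif5c and Klc1 are far apart with neurons higher, and those of Kif5b, Kif13a, Kif16b and Kif1c are apart with astrocytes higher.

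Among the 15 transport kinesins 9 were higher in neurons, 5 were higher in astrocytes and 1, Kif17, did not pass. The share higher in neurons was 60.0%, against 31.0% of all genes. The share higher in astrocytes was 33.3%, against 31.1% and so close to the background. The share called was 93.3%, against 62.2% of all genes, and the median log2 fold change was 0.63. The groups did not overlap for any of the 15, as for 81.9% of all genes. Kinesin-2 is built from Kif3a with Kif3b or Kif3c and the adaptor Kifap3, and serves axons as well as cilia. Kif3a had 912 and 928 in neurons against 384 and 466 in astrocytes, 2.14-fold higher in neurons (1.10 ± 0.14, adjusted p = 0.000177), and its 4 probe sets were all called in that direction. Kif3c, the partner enriched in neurons, had 644 and 712 in neurons against 293 and 295 in astrocytes, 2.25-fold higher (1.17 ± 0.13, adjusted p = 9.29e-05). A second Kif3c probe set, at 758 and 711 in neurons and 104 and 68 in astrocytes, gave 7.71-fold, and the mean of both gave a log2 fold change of 2.06. Kif3b, the partner present in most cells, had 237 and 298 in neurons and 172 and 164 in astrocytes, 1.54-fold higher in neurons (adjusted p = 0.0116). The Kif3b call was the weakest of the 3. Leaving out neurons replicate 2 (adjusted p = 0.0764), astrocytes replicate 1 (0.0984) or astrocytes replicate 2 (0.119) ended it, as did the fits with probe sets averaged (0.184) and with no probe sets ending in _s_at, _x_at or _a_at (0.301). Kifap3, which is no member by its name, had 2720 and 2778 in neurons and 884 and 768 in astrocytes, 3.30-fold higher in neurons (adjusted p = 4.90e-06).

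Kif17 carries NMDA receptor subunits into dendrites. By its brightest probe set it had 69 and 47 in neurons and 40 and 28 in astrocytes (adjusted p = 0.0795). A second probe set had 84 and 62 in neurons and 14 and 32 in astrocytes and was called higher in neurons (2.47-fold, adjusted p = 0.00550). The groups did not overlap on either probe set. Kif21b, a dendritic kinesin that also slows microtubule growth, had 498 and 408 in neurons against 60 and 57 in astrocytes, 6.53-fold higher in neurons (2.71 ± 0.17, adjusted p = 3.22e-06). Its relative Kif21a had 481 and 714 in neurons and 359 and 310 in astrocytes, 1.73-fold higher (adjusted p = 0.00761), a call that was lost without neurons replicate 2 (0.0832) or astrocytes replicate 1 (0.103) or 2 (0.163). The second Kif21a probe set gave 1.80-fold in the same direction (adjusted p = 0.00220).

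The kinesin-3 members, which carry vesicles and organelles as single motors or dimers, held the 3 largest excesses in astrocytes among the transport kinesins. Kif1c, found in many tissues, had 158 and 122 in neurons against 801 and 790 in astrocytes. It was 5.34-fold higher in astrocytes (-2.42 ± 0.16, adjusted p = 3.96e-06), its 4 probe sets agreed in direction, and their mean gave -1.53. Kif16b, which moves early endosomes, had 48 and 68 in neurons and 206 and 180 in astrocytes, 2.94-fold higher in astrocytes (-1.56 ± 0.21, adjusted p = 0.000251). Kif13a, which moves endosomes and mannose-6-phosphate receptor vesicles, had 218 and 171 in neurons and 443 and 440 in astrocytes, 2.21-fold higher in astrocytes (-1.14 ± 0.16, adjusted p = 0.000342). The other 4 tested Kif13a probe sets did not pass, and the mean of the 5 gave -0.44. Kif13b, the closest relative of Kif13a, had 82 and 85 in neurons and 150 and 149 in astrocytes, 1.69-fold higher in astrocytes (adjusted p = 0.00522). It missed the threshold without astrocytes replicate 1 (0.0542) or 2 (0.0533). On the same arrays 6 of 8 fibroblast and meningeal markers and 4 of 5 tested microglia markers were also higher in astrocytes, and their part in these kinesin differences was not tested.

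Kif1a, the carrier of synaptic vesicle precursors, was higher in neurons by a small margin. It had 171 and 142 in neurons against 84 and 82 in astrocytes, 1.76-fold (0.82 ± 0.18, adjusted p = 0.00459), and the call was lost without astrocytes replicate 1 (0.0592) or 2 (0.0641). The second Kif1a probe set, at 68 and 49 in neurons and 46 and 48 in astrocytes, did not pass (adjusted p = 0.394). Kif1b, whose isoforms carry mitochondria or synaptic vesicle precursors, had 3208 and 3112 in neurons and 1982 and 2081 in astrocytes by its brightest probe set, 1.55-fold higher in neurons (0.63 ± 0.10, adjusted p = 0.000793).

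Probe sets of 1 gene disagreed in direction for Kif1b and Klc1, out of 26 members with more than 1 tested probe set. For Kif1b, 2 of 7 tested probe sets were called higher in neurons, 3 higher in astrocytes and 2 did not pass. A Kif1b probe set higher in astrocytes had 98 and 113 in neurons against 259 and 272 in astrocytes (2.36-fold, adjusted p = 0.000237), and the average of the 7 was -0.20 on the log2 scale (adjusted p = 0.263). For Klc1 the brightest probe set and a second one (273 and 359 in neurons, 63 and 78 in astrocytes, 3.94-fold) were higher in neurons. The other Klc1 probe set was reversed, at 120 and 144 in neurons against 238 and 281 in astrocytes (1.88-fold higher in astrocytes, adjusted p = 0.00194), and the mean of the 3 gave 1.94. The files do not say which transcripts of these genes each probe set reads. A gene-level direction for Kif1b therefore depends on the probe set chosen.

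**Figure D3:**
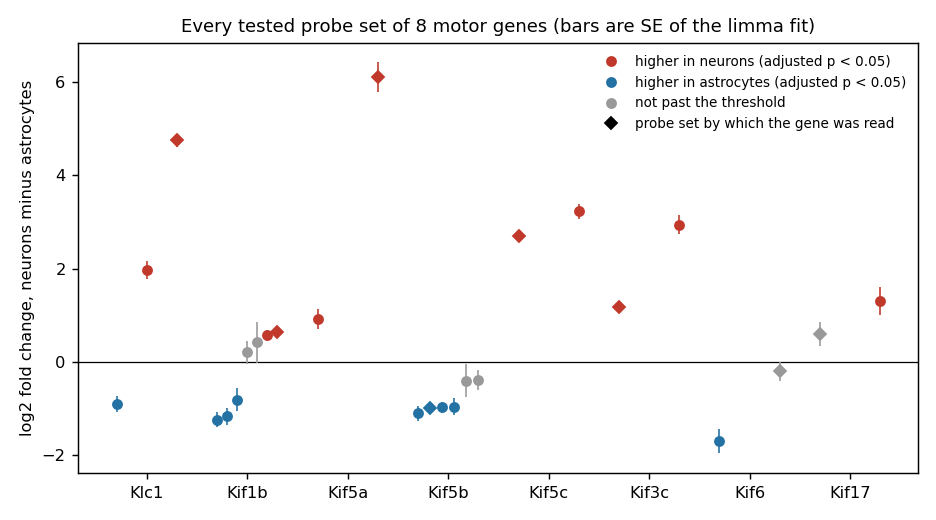
Log2 fold change (neurons minus astrocytes, y axis, with the SE of the limma fit) of every tested probe set of 8 motor genes (x axis), with a diamond for the probe set by which the gene was read. Klc1 and Kif1b have called probe sets on both sides of 0, whereas those of Kif5a and Kif5c are above 0 and those of Kif5b below it.

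Cytoplasmic dynein 1 is assembled on the heavy chain Dync1h1, with intermediate chains that bind dynactin, light intermediate chains and light chains. Of the 7 genes 4 were higher in neurons, 0 were called higher in astrocytes and 3 did not pass at the probe set read (57.1% called, against 62.2% of all genes). Toward neurons alone the 57.1% stood against 31.0% of all genes. Dync1i1, the intermediate chain enriched in neurons, had 1335 and 1123 in neurons against 8 and 15 in astrocytes. Both astrocyte arrays were at or under background, so the signal was at least 76.7-fold higher in neurons (log2 fold change 5.70 ± 0.20 on the offset scale, adjusted p = 1.98e-07). With an offset 4 times as large this was 4.38, and with an offset 4 times as small 6.43. Dync1i2, the intermediate chain of most cells, overlapped between the cultures, with 1514 and 1582 in neurons and 1739 and 1416 in astrocytes (-0.02 ± 0.13, adjusted p = 0.908).

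Light intermediate chains tie dynein to its cargo adaptors. Dync1li1 had 590 and 673 in neurons against 233 and 185 in astrocytes, 2.92-fold higher in neurons (1.55 ± 0.16, adjusted p = 5.59e-05). Dync1li2 had 621 and 404 in neurons and 609 and 725 in astrocytes by its brightest probe set (adjusted p = 0.123). Its second probe set, at 424 and 438 in neurons and 724 and 804 in astrocytes, was 1.75-fold higher in astrocytes (adjusted p = 0.000700), and the mean of both gave -0.60 (adjusted p = 0.00413). The heavy chain Dync1h1 had 1616 and 1186 in neurons and 701 and 1001 in astrocytes, 1.64-fold higher in neurons (adjusted p = 0.0140). The arrays of each culture differed from each other, and the call was lost in each fit that left 1 array out (adjusted p of 0.0575 to 0.236, the lowest without astrocytes replicate 2 and the highest without neurons replicate 1). It was lost without the filter as well (0.0828). Dynll1, the light chain that dynein shares with many other proteins, had 6311 and 6271 in neurons and 4274 and 4027 in astrocytes, 1.51-fold higher in neurons (0.60 ± 0.10, adjusted p = 0.000790), and its 4 probe sets agreed. Dynll2 had 2306 and 1742 in neurons and 1266 and 1988 in astrocytes, with groups that overlapped (adjusted p = 0.214). A second Dynll2 probe set was 1.59-fold higher in neurons (adjusted p = 0.00541).

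Dynactin switches dynein on and links it to cargo. Of the 6 genes 2 had more signal in neurons and 4 did not pass (33.3% called, against 62.2% of all genes). Toward neurons alone the 33.3% stood close to the background of 31.0%. Dctn1, the large subunit that binds microtubules and the dynein intermediate chain, had 1988 and 1600 in neurons against 671 and 768 in astrocytes, 2.46-fold higher in neurons (1.30 ± 0.14, adjusted p = 8.00e-05), and its second probe set gave 2.65-fold. Dctn3, a small shoulder subunit, had 2310 and 2036 in neurons and 1139 and 1276 in astrocytes, 1.79-fold higher in neurons (0.84 ± 0.12, adjusted p = 0.000411). Dctn2, the shoulder subunit dynamitin, had 1214 and 1104 in neurons and 934 and 1164 in astrocytes (adjusted p = 0.389). The remaining log2 fold changes were 0.22 ± 0.13 for Dctn4, 0.11 ± 0.13 for Dctn5 and -0.13 ± 0.17 for Dctn6, none past the threshold. The Arp1 and capping subunits of dynactin carry other names, and of 12 tested motor subunits with other names, Kifap3 included, 5 were higher in neurons (41.7%, against 31.0% of all genes) and 4 higher in astrocytes (33.3%, against 31.1% and so close to the background). Capza2, the brightest of them, had 3723 and 3306 in neurons and 3538 and 3882 in astrocytes (adjusted p = 0.572).

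**Figure D4:**
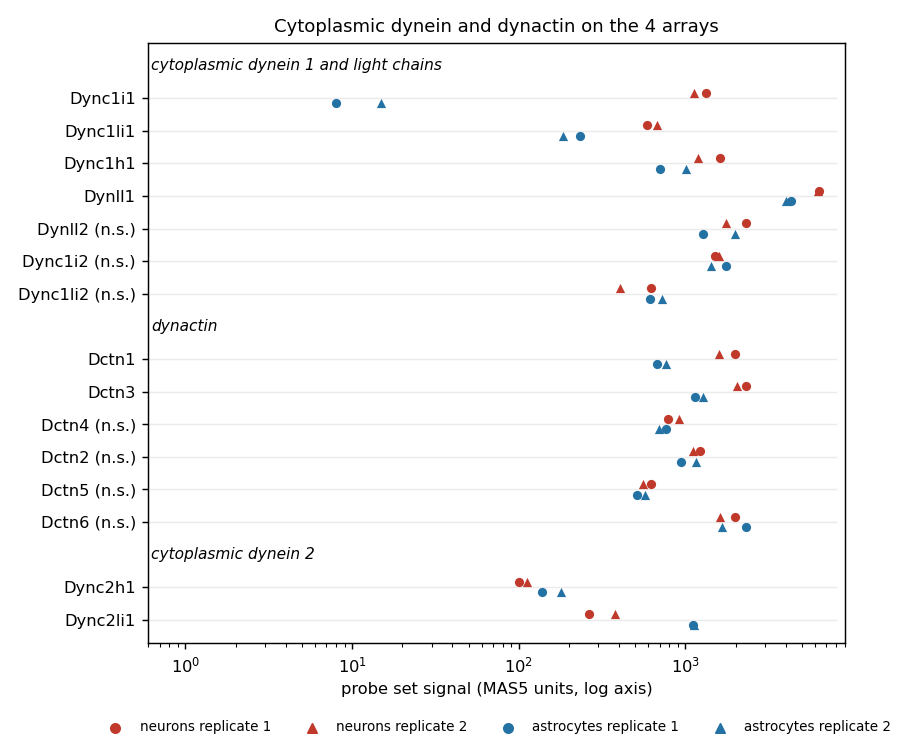
Signal (x axis, MAS5 units, log scale) of the 7 genes of dynein 1 and its light chains, 6 dynactin subunits and 2 genes of dynein 2 (y axis, ordered by fold change) on each array, neurons in red and astrocytes in blue, with n.s. for a gene that did not pass. The 2 cultures are far apart for Dync1i1, overlap for Dync1i2, Dync1li2, Dynll2 and 3 of the dynactin subunits, and have astrocytes higher for Dync2li1.

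Dynein 2 returns cargo from the tip of cilia to their base, and both measured genes were higher in astrocytes (100%, against 31.1% of all genes). Dync2li1, its light intermediate chain, had 263 and 378 in neurons against 1102 and 1124 in astrocytes, 3.43-fold higher in astrocytes (-1.78 ± 0.17, adjusted p = 3.93e-05). The heavy chain Dync2h1 had 100 and 112 in neurons and 138 and 179 in astrocytes, 1.43-fold higher in astrocytes (adjusted p = 0.0433). That call was lost in each fit that left 1 array out (adjusted p of 0.0666 to 0.234, the lowest without astrocytes replicate 1 and the highest without astrocytes replicate 2), with no filter (0.0915) and with a prior variance that ignored signal (0.0517). Of the kinesins known from motile cilia, Kif9 and Kif27 passed in the same direction. Both were kept through the astrocyte arrays alone, so the filter set their direction, which is no support for the dynein 2 difference. Kif9, which acts in cilia and the sperm tail, had 34 and 23 in neurons and 115 and 108 in astrocytes, 3.05-fold higher in astrocytes (-1.61 ± 0.22, adjusted p = 0.000332). Kif27 was at or under background on both neuron arrays, at 18 and 12, with 39 and 40 in astrocytes, at least 1.80-fold higher in astrocytes (adjusted p = 0.0128). It was lost without neurons replicate 2 (0.0629) or astrocytes replicate 1 (0.0711) or 2 (0.0759).

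Kif6, an ependymal cilium kinesin, did not pass by its brighter probe set (43 and 44 in neurons, 51 and 53 in astrocytes, adjusted p = 0.439). Its other probe set had 4 and 3 in neurons, under background, and 38 and 41 in astrocytes (at least 1.80-fold, adjusted p = 0.000612). That probe set was also kept through the astrocyte arrays alone. Kif7, which works at the tip of the primary cilium in Hedgehog signalling, overlapped between the cultures (55 and 92 in neurons, 85 and 105 in astrocytes, adjusted p = 0.264). The 6 ependymal markers summed to 190 and 154 in neurons and 786 and 820 in astrocytes, and 2 of the 6 were at background in neurons. All 3 tested markers were called higher in astrocytes (100%, against 31.1% of all genes). Some of them, Foxj1 included, were kept through the astrocyte arrays alone, so the filter set their direction. The count is therefore no support for a difference of the list. The cilium regulator Foxj1 had 35 and 24 in neurons and 410 and 407 in astrocytes. The part of ependymal cells in the dynein 2 and Kif9 differences was not tested. Dynlrb2, a dynein light chain of motile cilia, had 21 and 38 in neurons and 376 and 439 in astrocytes.

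The mitotic kinesins had low signals. Of 12 genes 8 were tested, and 7 of these were higher in neurons and 0 in astrocytes (87.5% higher in neurons, against 31.0% of all genes), and Kif18b did not pass (39 and 34 in neurons, 45 and 17 in astrocytes, adjusted p = 0.551). Of the 7 called genes, 6 were kept through the neuron arrays alone, so their direction was set by the filter and the share is no support for a difference of the class. The median log2 fold change of the 8, subject to the same limit, was 1.20. Without a filter 6 of the 12 were called higher in neurons, and with a filter at the 75th percentile 1, Kif22, could be tested and called. Kif22, which pushes chromosome arms, had 482 and 391 in neurons against 182 and 205 in astrocytes, 2.17-fold higher in neurons (1.12 ± 0.16, adjusted p = 0.000401). It was the mitotic member above the array medians on all 4 arrays, read by a probe set whose _x_at suffix marks possible cross-hybridisation. Of 3 Kif22 probe sets this was the 1 tested, so the call rests on it alone. The others were too dim to be tested. Of these, 1 had 47 and 23 in neurons and 9 and 29 in astrocytes. The last had 68 and 36 in neurons and 23 and 16 in astrocytes.

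Kif11, the motor that separates spindle poles, had 86 and 67 in neurons and 28 and 29 in astrocytes, 2.16-fold higher in neurons (1.11 ± 0.22, adjusted p = 0.00281). A second Kif11 probe set was called in that direction (2.11-fold, adjusted p = 0.00702), and another, at 58 and 27 in neurons and 35 and 29 in astrocytes, overlapped and did not pass (adjusted p = 0.519). Kif4, a chromosome arm and spindle midzone motor, had 91 and 84 in neurons and 20 and 31 in astrocytes, 2.66-fold higher (1.41 ± 0.23, adjusted p = 0.000963). Kif23, the motor of centralspindlin in cytokinesis, had 76 and 65 in neurons and 12 and 21 in astrocytes, 2.89-fold higher (1.53 ± 0.25, adjusted p = 0.000944). By the probe sets read, the neuron arrays lay above background and the astrocyte arrays close to it. Kif20b, another cytokinesis motor, had 72 and 56 in neurons and 19 and 13 in astrocytes, 2.68-fold higher (1.42 ± 0.25, adjusted p = 0.00130). With an offset 4 times as large the log2 fold change was 0.79 for Kif20b and 0.86 for Kif23. Only 1 of 4 Kif20b probe sets and 1 of 3 Kif23 probe sets were tested, so each call rests on 1 probe set. The untested ones of both genes were at background in both cultures. Kif20a, which recruits the passenger complex to the midzone, had 78 and 39 in neurons and 18 and 21 in astrocytes, 2.14-fold higher (adjusted p = 0.0140). Kif2c, which depolymerises microtubules at kinetochores, was read by the 1 tested of its 4 probe sets. It had 88 and 59 in neurons and 32 and 15 in astrocytes, 2.42-fold higher (adjusted p = 0.00633). Both of these calls were lost in 3 of the 4 fits with 1 array left out. Kif20a was lost without neurons replicate 1 (0.0930) or astrocytes replicate 1 (0.160) or 2 (0.130) and without the filter (0.0731). Kif2c was lost without neurons replicate 1 (0.133) or 2 (0.0644) or astrocytes replicate 2 (0.100).

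The start regions shown above belong to Kif11, Kif4, Kif20b, Kif22 and Kif23, the 5 mitotic kinesins whose calls held with any 1 array left out. All 8 tested mitotic kinesins were higher on the array of neurons replicate 1 than on that of replicate 2, with summed signals of 1012 and 795 in neurons and 356 and 352 in astrocytes. The 15 transport kinesins showed no such order, with 7 of 15 higher on replicate 1. Among 23 mitotic genes that encode no motor 22 were higher on neurons replicate 1 than on replicate 2. The share of all tested genes in that order was not computed, so the order cannot be called particular to mitotic genes. Of the 23 mitotic genes that encode no motor, 21 were higher in neurons, 1 in astrocytes and 1 did not pass (91.3% and 4.35%, against 31.0% and 31.1% of all genes). Their summed signals were 4259 and 2898 in neurons and 1210 and 1188 in astrocytes. Several of them, Mki67 and Aurkb included, were above the array medians on the neuron arrays alone, so the filter set their direction. As for the mitotic kinesins, the share is therefore no support for a difference of the list. The proliferation antigen gene Mki67 had 468 and 298 in neurons and 13 and 16 in astrocytes, the kinase gene Aurkb 58 and 57 in neurons and 1 and 8 in astrocytes, and Top2a, the brightest of the list, 529 and 356 in neurons and 89 and 115 in astrocytes. Anln, a cytokinesis scaffold, was the exception, at 90 and 75 in neurons and 197 and 134 in astrocytes.

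Markers of neural progenitors and of the oligodendrocyte lineage were read on the same arrays. Of 7 tested neural progenitor markers 6 were higher in astrocytes and 1, Hes5, in neurons (85.7% and 14.3%, against 31.1% and 31.0% of all genes). Their summed signals were 3826 and 3612 in neurons and 18685 and 19800 in astrocytes. Of 6 tested markers of the oligodendrocyte lineage, 4 had more signal in neurons and 1 had more in astrocytes (66.7% and 16.7%, against 31.0% and 31.1%). The summed signals of this list were 5322 and 4413 in neurons and 4200 and 4597 in astrocytes. Pdgfra, the receptor of oligodendrocyte precursors and named after its values were seen, had 1177 and 1302 in neurons and 19 and 21 in astrocytes. Pdgfra and Hes5 were among the markers kept through the neuron arrays alone, so the filter set their direction. The part of progenitors and oligodendrocyte lineage cells in the mitotic kinesin differences was not tested.

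**Figure D5:**
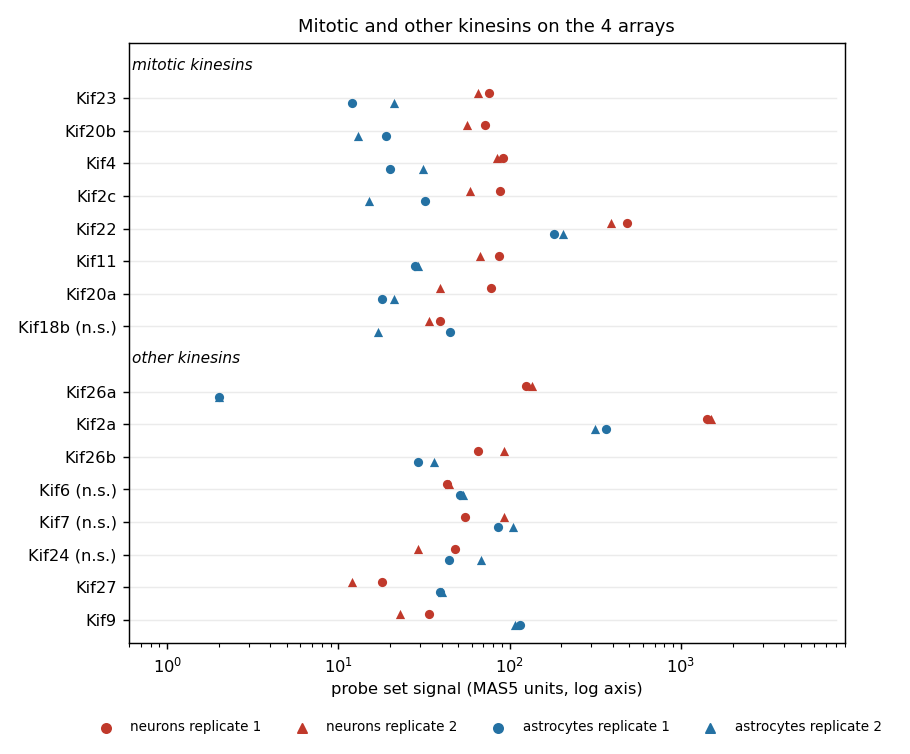
Signal (x axis, MAS5 units, log scale) of the 8 tested mitotic kinesins and 8 other kinesins (y axis, ordered by fold change) on each array, neurons in red and astrocytes in blue, with n.s. for a gene that did not pass. For 7 mitotic kinesins both red points lie to the right of both blue points, and those of Kif18b overlap.

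Among the remaining kinesins, the largest difference was in Kif26a, a kinesin without motor activity that restrains growth factor signalling in enteric neurons. It had 125 and 134 in neurons against 2 and 2 in astrocytes, where it was under background, at least 8.10-fold higher in neurons (adjusted p = 5.63e-06). Its log2 fold change moved with the offset, from 1.79 with an offset 4 times as large to 4.69 with an offset 4 times as small. Kif2a, a microtubule depolymerase that trims axon branches and also acts on the spindle, had 1423 and 1492 in neurons and 363 and 313 in astrocytes, 4.20-fold higher in neurons (2.07 ± 0.13, adjusted p = 3.01e-06). Of its 4 tested probe sets 3 were called in that direction, and their mean gave 1.27. Kif26b, known from kidney development, had 65 and 92 in neurons and 29 and 36 in astrocytes, 2.01-fold higher in neurons (adjusted p = 0.00664). That call was lost without neurons replicate 2 (0.0717) or astrocytes replicate 1 (0.0931) or 2 (0.0617). Kif24, a centriolar depolymerase, overlapped between the cultures (48 and 29 in neurons, 44 and 68 in astrocytes, adjusted p = 0.224).

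The adaptors and regulators that load or anchor the motors were more often higher in neurons. Of 23 tested, 13 were higher in neurons, 4 higher in astrocytes and 6 did not pass, with a median log2 fold change of 0.54 (56.5% higher in neurons and 17.4% in astrocytes, against 31.0% and 31.1% of all genes). Hook1, an adaptor of dynein, had 516 and 733 in neurons against 89 and 78 in astrocytes, 6.55-fold higher in neurons (adjusted p = 6.43e-06). Mapk8ip2, a scaffold that binds kinesin light chain, had 691 and 754 in neurons and 77 and 137 in astrocytes, 6.35-fold higher (adjusted p = 2.01e-05). Nde1, a dynein regulator of dividing progenitors, had 76 and 55 in neurons and 203 and 181 in astrocytes, 2.64-fold higher in astrocytes (adjusted p = 0.000390). Rilp, which links dynein to late endosomes, was under background in neurons, at 7 and 17, with 39 and 44 in astrocytes, at least 1.88-fold higher in astrocytes (adjusted p = 0.00768). Spag9, the brightest of the list and a kinesin and dynein scaffold, had 3507 and 3354 in neurons and 2853 and 2502 in astrocytes, 1.28-fold higher in neurons (adjusted p = 0.0216). Among motor subunits with other names the minus-end kinesin Kifc2 was at least 13.4-fold higher in neurons (211 and 216 in neurons, 5 and 14 in astrocytes, adjusted p = 7.79e-06). Kifc3, another minus-end kinesin, was 2.16-fold higher in astrocytes (186 and 182 in neurons, 376 and 452 in astrocytes, adjusted p = 0.000313).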

How the data were processed

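Gene expression was measured on 4 arrays, 2 of neuron and 2 of astrocyte cultures. Per the labels' protocols, RNA came from a Trizol extraction, and 50 ng per sample went through 2 rounds of amplification to biotinylated cRNA. The authors deposited 1 linear intensity per probe set, computed with MAS5 (version not given in the sources used here), per the submitters' processing notes, and scaled to trimmed means (2% from each end) between 149.997 and 150.002. No detection calls were used. The platform annotation gave 34945 of 45037 transcript probe sets 1 symbol, 932 several and 9160 none, and 64 control probe sets were left out.

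Values were kept as scaled and transformed to log2(value + 12.5), the offset being the median of the arrays' 25th percentiles. Limma 3.58.1 in R 4.3.3 (lmFit, then eBayes with the prior variance following mean signal, two-sided) was run on the 25019 kept probe sets with Benjamini-Hochberg adjustment. The fit had 2 residual degrees of freedom, a prior worth 6.27 and a median SE of 0.20 (log2); the number of arrays limits the precision. Where both arrays of a group were at or under the control background, the fold is "at least", the other group's mean log2 signal set against that of the background. Alternatives were other offsets, filters, normalization, probe set rules and variance priors, a replicate block and each array left out. Replicates 1 and 2 deviated from their group means with a correlation of -0.09 between the groups, and nothing in the labels pairs them. Every member may be named; of the other lists, the 2 largest called changes each way and the brightest gene. Members, classes and lists were chosen with earlier results of these data known.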

Additional observations from a re-analysis of the deposited data

How the results depend on the processing

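Of the 37 called members, 24 were past the threshold in the same direction under every one of 13 alternatives that could test them. With 1 array left out the fit has 1 residual degree of freedom and takes a lone array to vary like the others. The genes called higher in neurons then numbered 19 to 23 (26 with all arrays) and those higher in astrocytes 6 to 9 (11). Among these the mitotic kinesins higher in neurons were 5 or 6 (7), and the transport kinesins 6 to 9 higher in neurons (9) and 4 or 5 higher in astrocytes (5), the last count added after the data were seen. The low of 6 higher in astrocytes came without astrocytes replicate 1 and also without replicate 2. A filter at the 75th percentile, which tests fewer genes, left 17 members called toward neurons, 6 toward astrocytes and 1 mitotic kinesin. Without probe sets ending in _s_at, _x_at or _a_at, 3 mitotic kinesins were called. Averaging probe sets reversed Kif1b (-0.20). The replicate number as a replicate block gave 26 members toward neurons and 11 toward astrocytes and changed no member's call, although the numbers pair nothing. Both offsets and quantile normalization changed no member's call. Signal over background limits the dim genes: near the controls, as for most mitotic kinesins in astrocytes, folds move with the offset.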
